A study of Homo sapiens with 14 samples.

Results

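The combination of palbociclib and indisulam was compared, gene by gene, with what the 2 drugs did on their own in A549 cells. A549 is an established epithelial line from a lung cancer. The comparison used 8 of the 14 libraries of the series, 2 in each of 4 groups. One group was untreated, and the others received 2 µM palbociclib, 0.5 µM indisulam, or both drugs at these doses, each for 10 days. The labels give no collection time for untreated cells. A further A549 pair, given 0.5 µM of the compound PF-06873600 for 7 days, entered the choice of tested genes and the estimate of the spread, but not the comparison. The design text calls the 2 libraries of a group technical duplicates, so p-values measure only the spread between these libraries and not that between cultures.

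Palbociclib inhibits the kinases CDK4 and CDK6, which phosphorylate the retinoblastoma protein RB and so release E2F transcription factors to drive the genes of S phase. Indisulam is an aryl sulfonamide that glues the splicing factor RBM39 to the ubiquitin ligase substrate receptor DCAF15, after which RBM39 is degraded. Cells held out of the cycle for long can enter senescence, a lasting arrest known for loss of lamin B1, enlarged lysosomes and secretion of chemokines and matrix proteins.

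For each gene the departure is the log2 change with both drugs against untreated cells minus the sum of the log2 changes with palbociclib alone and with indisulam alone. A positive departure places the combination above the sum and a negative one below it. A departure of 0 means that the fold changes multiply. Levels are CPM, the reads counted on a gene scaled to a fixed total over all genes of the library, and a gene was called when its adjusted p from edgeR's quasi-likelihood test was under 0.05. Of 60683 gene identifiers, 15780 had enough counts to be tested, and all 15780 were treated as members of the comparison.

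The combination departed from the sum in both directions. It lay above the sum for 1696 genes, 10.7% of those tested, and below it for 2281, or 14.5%, while the median departure of all genes was −0.0212. Among the genes above, 872 rose more than the sum, 577 rose where the sum fell, and 247 fell less than the sum. Among the genes below, 874 fell more than the sum, 904 fell where the sum rose, and 503 rose less than the sum. These classes go by the sign of the fitted changes and were not tested one by one. In 1303 genes above the sum (8.26% of all tested) the combination was also called higher than with either drug alone, and in 1643 below the sum (10.4%) it was also called lower than with either.

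Of the genes above the sum 590 (34.8%), and of those below 806 (35.3%), were called neither for palbociclib nor for indisulam against untreated cells, where 50.2% of all tested genes were called for neither. Departures of at least 1 on the log2 scale were reached by 452 genes above and 616 below. The 2 combination libraries were higher than all 6 other libraries for 1362 genes above the sum (80.3%), where 28% of all tested genes had that order. They were lower than all 6 for 1628 genes below the sum (71.4%), against 25.2% of all tested. When the sum was taken in CPM instead of log2, all 1696 genes above kept their sign, as did 2221 of the 2281 below. Where both drugs moved a gene in the same direction, the level expected in CPM is lower than that in log2. Such a gene above the log2 sum was bound to keep its sign.

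**Figure D1:**
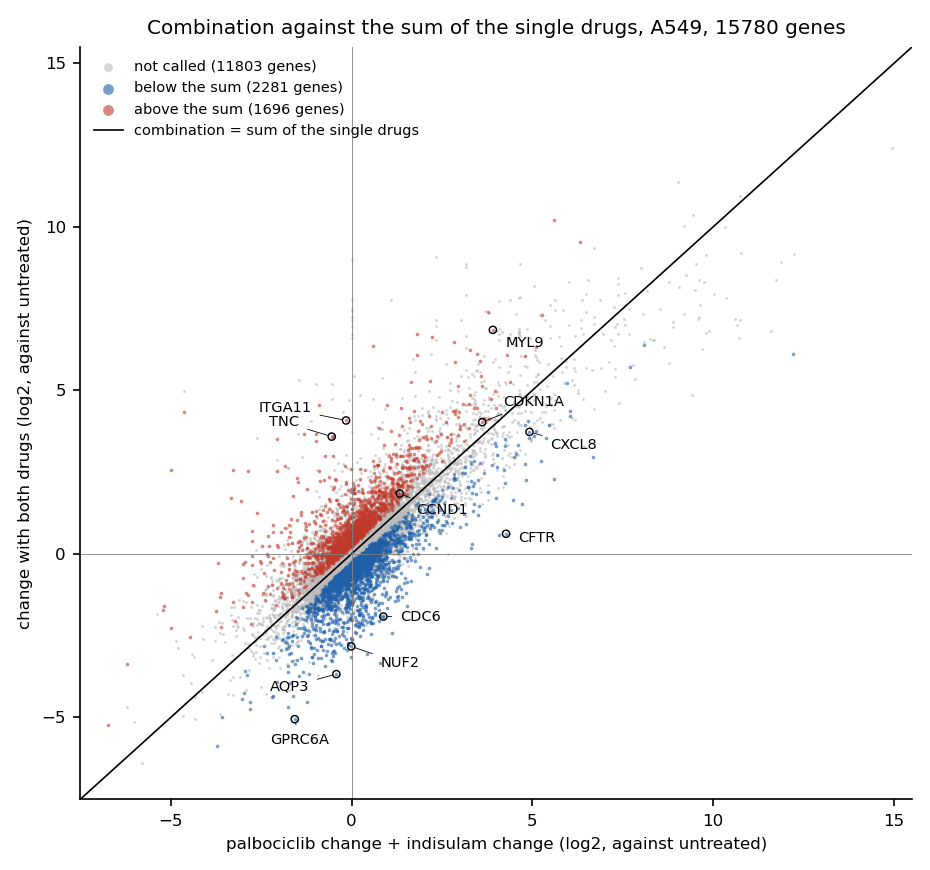
Each point is 1 of 15780 genes in A549, with the sum of the log2 changes with palbociclib and with indisulam on the x axis and the log2 change with both drugs on the y axis, all against untreated cells, and the line marks equality. The 1696 genes called above the sum lie over the line and the 2281 called below lie under it, with ITGA11 and TNC far above near a sum of 0 and NUF2 and AQP3 far below.

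The 8 libraries held 13475593 to 16388606 counts on genes, so that 3 counts corresponded to 0.183 to 0.223 CPM. Reads of low mapping quality amounted to 11.7 to 13.9% of the gene counts, reads assigned to more than 1 gene to 3.91 to 4.40%. The untreated pair differed most from each other, with a chi-square of 9.57 per degree of freedom over genes, against 2.22 to 5.04 in the other groups. No count of CDKN2A, which is deleted in A549, was found in the 8 libraries, and MTAP beside it had 0 to 5 counts. All 6 epithelial markers were found in every group, while of 8 hematopoietic markers CD3E, CD3D and MS4A1 had 0 counts and the summed level of the 8 stayed between 7.53 and 18.4 CPM. Scaling by TMM factors in place of total counts moved the median indisulam change by −0.079 and the median combination change by −0.085, but the median departure by only −0.013.

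The genes furthest below the sum as a group were those of the cell cycle, and the promoters of a few of them are shown first because motif counts differed between mitotic and replication genes. The stretches end at the base before the transcription start of the RefSeq annotation (GRCh38.p14) and are read 5′ to 3′ on the strand of the gene. Capitals mark matches on either strand to 3 motifs: the cell cycle homology region TTTGAA bound by the DREAM and MMB complexes, the NF-Y box CCAAT, and the E2F sites TTTCGCGC, TTTGGCGC or TTTCCCGC. In MKI67 a cell cycle homology match and an NF-Y match share bases.
ASPM, chr1:197146670-197146813, minus strand: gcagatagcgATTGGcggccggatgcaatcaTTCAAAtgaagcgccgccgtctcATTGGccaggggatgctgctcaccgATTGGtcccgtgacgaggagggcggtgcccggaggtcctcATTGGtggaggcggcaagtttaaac
MKI67, chr10:128126424-128126531, minus strand: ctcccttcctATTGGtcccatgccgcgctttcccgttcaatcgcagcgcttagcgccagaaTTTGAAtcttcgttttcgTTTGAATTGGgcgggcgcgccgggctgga
CDK1, chr10:60778160-60778330, plus strand: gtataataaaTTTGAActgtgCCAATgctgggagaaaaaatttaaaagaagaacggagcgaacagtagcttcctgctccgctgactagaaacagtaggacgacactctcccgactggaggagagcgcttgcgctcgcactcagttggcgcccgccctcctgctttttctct
CDC6, chr17:40287743-40287878, plus strand: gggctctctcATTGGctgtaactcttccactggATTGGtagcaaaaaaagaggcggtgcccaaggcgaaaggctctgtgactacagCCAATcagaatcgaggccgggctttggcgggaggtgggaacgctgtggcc
PCNA, chr20:5126623-5126784, minus strand: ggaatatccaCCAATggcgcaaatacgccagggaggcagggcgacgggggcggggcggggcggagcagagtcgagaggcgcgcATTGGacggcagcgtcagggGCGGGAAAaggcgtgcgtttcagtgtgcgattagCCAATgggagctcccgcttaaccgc
E2F1, chr20:33686386-33686574, minus strand: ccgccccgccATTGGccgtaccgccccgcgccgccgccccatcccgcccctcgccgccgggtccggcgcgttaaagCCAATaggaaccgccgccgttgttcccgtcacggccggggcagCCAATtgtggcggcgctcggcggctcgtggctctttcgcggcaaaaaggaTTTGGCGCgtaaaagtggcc

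ASPM, MKI67 and CDK1, which act in mitosis, hold the cell cycle homology letters in these stretches, whereas CDC6, PCNA and E2F1 do not. PCNA and E2F1 hold an E2F match in the stretch, and CDC6 and CDK1 hold one just after the start. Over windows from 250 bases before to 50 bases after the start, 11517 of the tested genes had a RefSeq sequence. The homology region letters were in 9.98% of these windows, in 6.89% of those of genes above the sum and in 15.5% of those below. Among genes below the sum by at least 1 log2 the share was 26.2%. In the mitosis list it was 33 of 46 windows (71.7%), whereas in the DNA replication list it was 5.13%. E2F letters showed the reverse order, with 19 of 39 replication windows (48.7%) and 4.35% of mitosis windows, against 4.39% of all. CCAAT was found in 36.3% of all windows, 42.1% of those below the sum, 59.0% of replication windows and 76.1% of mitosis windows. Windows of genes above the sum were richer in G and C, with a median of 67.67%, against 65% of all and 64.0% of those below. A match is a count of letters and not a measured binding site.

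Mitotic genes fell with the combination, and as a list they had the lowest median departure of the gene lists other than cell type markers. All 54 tested genes of mitosis and G2/M lay below the sum, where 14.5% of all tested genes did, and all 54 were lower with the combination than with either drug alone. Their median departure was −1.97 on the log2 scale, or 3.91-fold under the product of the single-drug changes. The median change was −0.17 with palbociclib, 0.01 with indisulam and −2.17 with both. Of all 15780 tested genes palbociclib alone raised 1310 and lowered 1168, and indisulam alone raised 4420 and lowered 2757. Of the 54 mitotic genes palbociclib alone raised 8 and lowered 19, and indisulam alone raised 10 and lowered 15. In bulk RNA, fewer cells in the phases that express these genes and less RNA per cell cannot be told apart.

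NUF2, a subunit of the NDC80 complex that ties kinetochores to microtubules, measured 13.9 and 15.5 CPM in untreated cells, 12.7 and 13.5 with palbociclib, 15.7 and 17.1 with indisulam, and 2.198 and 1.93 with both. The single-drug libraries lay near the untreated ones, neither change was called, and the combination libraries lay far under all 6. Its departure was −2.82 ± 0.20 (SE, n = 2 libraries per group; edgeR adjusted p 1.43e-07). ASPM, which organises spindle poles, measured 63.2 and 69.3 CPM in untreated cells, 86.2 and 85.8 with palbociclib, 86.5 and 85.6 with indisulam, and 13.5 and 18.4 with both. Each drug alone was above untreated cells without overlap, while the combination was below every other library, and the departure was −2.80 ± 0.14 (edgeR adjusted p 5.32e-09).

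CDK1, the kinase that drives entry into mitosis, measured 53.2 and 60.9 CPM in untreated cells, 51.4 and 52.5 with palbociclib, 59.4 and 56.6 with indisulam, and 10.4 and 6.82 with both. Its departure was −2.63 ± 0.17. CCNB1, its cyclin partner, departed by −1.47 ± 0.10 and CCNA2, the cyclin A gene, by −0.93 ± 0.15. MKI67, the Ki-67 antigen gene used to mark cycling cells, was already lower with each drug, at 172 and 182 CPM untreated, 124 and 107 with palbociclib and 138 and 147 with indisulam. With both drugs it measured 30.0 and 29.3 CPM, a departure of −1.65 ± 0.12. The other spindle and checkpoint genes lay in the same direction, including TTK at −2.53 ± 0.16, MAD2L1 at −2.48 ± 0.16, PLK1 at −1.97 ± 0.10, FOXM1 at −1.63 ± 0.10 and AURKA at −1.19 ± 0.14. BUB3, a spindle checkpoint protein, had the smallest departure at −0.27 ± 0.09. SGO1, the cohesin protector that was not on the list but was among the 10 lowest departures of genes with at least 1 CPM in each group, reached −2.98 ± 0.21.

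DNA replication genes differed from the mitotic ones in that palbociclib alone raised many of them. It raised 20 of 47 and lowered 3, against 1310 and 1168 of all 15780 genes, with a median of 0.22. Indisulam raised 11 and lowered 10, against 4420 and 2757 of all genes, or 7 and 13 with TMM scaling. With both drugs 43 of 47 were lower than in untreated cells and none was called higher, against 4739 and 5544 of all 15780 genes. Of the 47, 45 (95.7%) were below the sum and none above, against 14.5% and 10.7% of all genes. Of the 45, 44 were lower than with either drug. The counts of genes above the sum and of genes higher with both drugs were also 0 at an unadjusted p under 0.05 in edgeR and with DESeq2. The median departure was −1.42. In 29 of the 45 the combination fell where the sum of the drugs rose, a class that held 20 of the 54 mitotic genes. The 2 genes not called were PRIM2 at −0.65 ± 0.24 and POLA2 at −0.60 ± 0.28.

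CDC6, which loads the replicative helicase onto origins, measured 27.9 and 32.8 CPM in untreated cells, 64.9 and 58.0 with palbociclib, 29.8 and 25.5 with indisulam, and 8.15 and 7.92 with both. Palbociclib libraries were the highest and combination libraries the lowest, with no overlap between either and the rest. The log2 change was 1.01 with palbociclib and −1.92 with both drugs, and the departure was −2.80 ± 0.16 (edgeR adjusted p 1.87e-08). ORC1, a subunit of the origin recognition complex, followed with 11.01 and 11.1 CPM untreated, 16.03 and 15.3 with palbociclib, 13.3 and 14.01 with indisulam and 3.05 and 2.90 with both. Its departure was −2.69 ± 0.17. MCM2, a subunit of the helicase, measured 50.7 and 48.5 CPM untreated, 76.8 and 77.7 with palbociclib, 57.02 and 60.6 with indisulam and 24.4 and 24.0 with both. All 6 MCM2 to MCM7 genes were below the sum, from −1.39 ± 0.11 for MCM3 to −2.35 ± 0.12 for MCM5.

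PCNA, the clamp that holds polymerases on DNA, was raised most by indisulam. It measured 116.5 and 118.9 CPM untreated, 138 and 131 with palbociclib, 184 and 188 with indisulam, and 74.7 and 79.2 with both. Each single drug was above untreated cells and the combination below them, a departure of −1.46 ± 0.08 (edgeR adjusted p 1.87e-08). Other factors far below the sum were the helicase activator CDC45 at −2.67 ± 0.25, the licensing factor CDT1 at −2.50 ± 0.18 and thymidine kinase TK1 at −2.14 ± 0.15. The ribonucleotide reductase subunits RRM2 and RRM1 reached −1.37 ± 0.11 and −1.03 ± 0.10.

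Repair by homologous recombination and the Fanconi pathway divided. Of 34 tested genes 22 (64.7%) were below the sum and 1 (2.94%) above, against 14.5% and 10.7% of all genes. The median departure was −1.04. BRCA1 (−1.98 ± 0.11), BRCA2 (−1.92 ± 0.24), BLM (−2.30 ± 0.19) and FANCD2 (−2.03 ± 0.21) were each raised or not called with palbociclib and lower with both drugs. RAD51AP1, which promotes strand exchange in recombination, was furthest from the sum at −2.54 ± 0.24. The nuclease scaffold gene SLX4 (−0.03 ± 0.18), PALB2 (−0.05 ± 0.16) and FANCL (−0.00 ± 0.19) were not called. RAD51D was the 1 gene above the sum, at 0.44 ± 0.13, and it was no longer called without the first palbociclib library (0.37), the first or second indisulam library (0.44 and 0.43) or the second combination library (0.38).

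**Figure D2:**
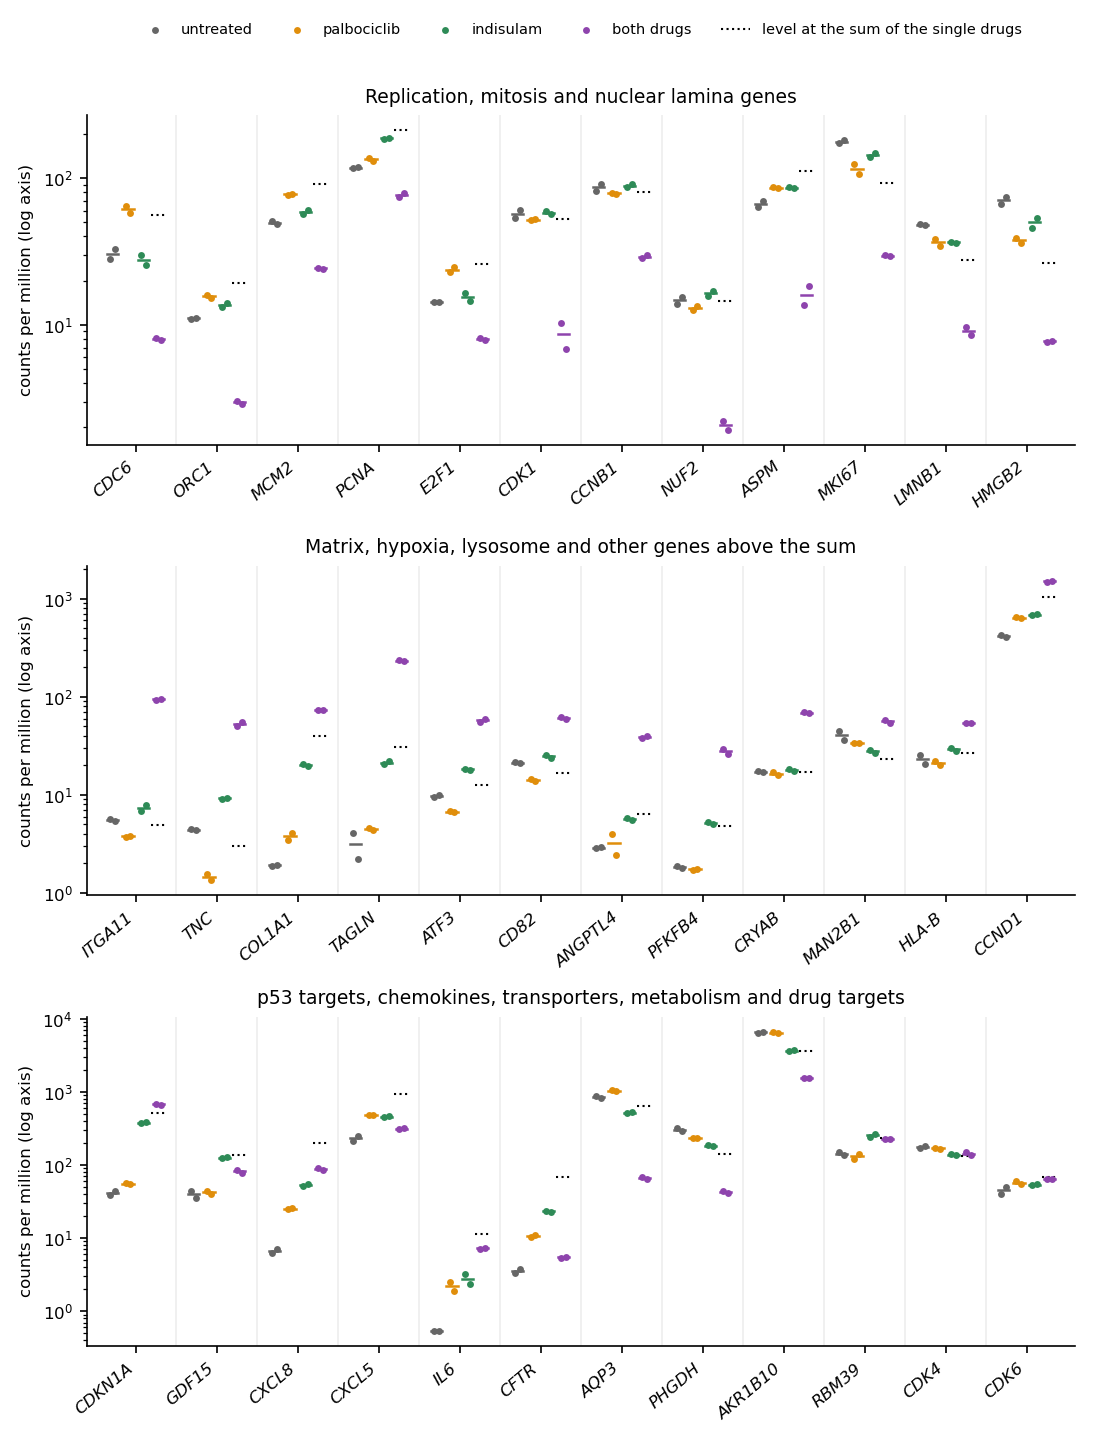
CPM on a log axis for 36 genes in 3 panels, with a point per library, a bar at the mean of the 2 libraries of untreated, palbociclib, indisulam and combination cells, and a dotted line at the level that the sum of the single-drug log2 changes gives. The combination points of CDC6 (8.15 and 7.92) lie far under their dotted line, those of ITGA11 (92.96 and 95) far over it, and those of RBM39, CDK4 and CDK6 close to it.

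Regulators of the cycle did not all move with their targets. Of 33 tested cyclin, kinase, inhibitor and RB-E2F genes, 16 (48.5%) were below the sum and 2 (6.06%) above, against 14.5% and 10.7% of all genes. Their median departure was −0.34. The activator E2F1, itself an E2F target, measured 14.2 and 14.3 CPM untreated, 22.9 and 24.6 with palbociclib, 16.5 and 14.6 with indisulam and 8.15 and 7.85 with both, a departure of −1.69 ± 0.15. E2F2 departed by −2.79 ± 0.25, whereas E2F3 (−0.23 ± 0.10), E2F4 (−0.04 ± 0.10) and E2F6 (−0.13 ± 0.14) were not called. CDK2, the partner of cyclins E and A, measured 25.9 and 23.8 CPM untreated and 19.7 and 19.9 with both, a departure of −0.62 ± 0.12. RB1 was not called, at −0.34 ± 0.13 (edgeR adjusted p 0.0745, and −0.51 with an adjusted p of 0.0015 without the second untreated library).

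Cyclin genes took different sides of the sum. CCND1, the cyclin D1 partner of CDK4 and CDK6, measured 429 and 406 CPM untreated, 646 and 638 with palbociclib, 675 and 693 with indisulam, and 1474 and 1522 with both, a departure of 0.51 ± 0.07 (edgeR adjusted p 0.000152). CCND3 measured 155 and 145 CPM untreated, 277 and 273 with palbociclib, 263 and 266 with indisulam, but 231 and 232 with both. Its combination level lay between untreated cells and each single drug, and the departure was −1.06 ± 0.08. CCNE1 rose with each treatment, to 26.9 and 25.5 CPM with both from 10.3 and 11.3 untreated, and its departure of −0.30 ± 0.13 was not called (edgeR adjusted p 0.119).

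The drug targets departed little. RBM39 measured 149.5 and 134.9 CPM untreated, 120.1 and 142 with palbociclib, 244 and 263 with indisulam, and 229 and 227 with both. Its mRNA was higher in all 4 libraries with indisulam than in the 4 without, and the departure was −0.04 ± 0.11, with a 95% interval from −0.27 to 0.20. CDK4 departed by 0.10 (interval −0.09 to 0.28) and CDK6 by −0.06 (interval −0.33 to 0.22), and DCAF15 by −0.11 (interval −0.52 to 0.29). CCNH, the cyclin of the CDK-activating kinase, measured 22.1 and 24.1 CPM untreated, 19.5 and 19.04 with palbociclib, 9.33 and 10.4 with indisulam and 9.71 and 9.07 with both. The fall with indisulam was present with and without palbociclib, and the departure of 0.19 ± 0.15 was not called. Its partners CDK7 and MNAT1 were not called either, at −0.16 ± 0.14 and −0.23 ± 0.14. Of the 13 genes of this list 1 was above the sum, the DCAF15 ligase component DDA1 (0.47 ± 0.10), and 1 below, CDK2. Each is 7.69% of the list, against 10.7% above and 14.5% below among all genes.

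Nuclear architecture genes that senescent cells are known to lose were lower with both drugs than with either. LMNB1, lamin B1, measured 48.3 and 47.7 CPM untreated, 38.4 and 34.6 with palbociclib, 36.5 and 36.2 with indisulam, and 9.64 and 8.56 with both. Both single drugs were under untreated cells and the combination was under all of them, a departure of −1.60 ± 0.13 (edgeR adjusted p 7.37e-07). HMGB2, a chromatin protein, measured 66.8 and 74.3 CPM untreated and 7.66 and 7.79 with both, a departure of −1.78 ± 0.15. Of 15 lamin and senescence chromatin genes 10 (66.7%) were below the sum, against 14.5% of all genes, among them LBR (−0.88 ± 0.10) and HMGB1 (−0.83 ± 0.09). Only HMGA2, an architectural protein of senescence-associated heterochromatin, was above it, at 0.80 ± 0.11. LMNA was not called (0.32 ± 0.13).

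Many extracellular matrix genes lay above the sum. Of 43 tested collagen, laminin and integrin genes 20 were above it and 2 below, where 10.7% and 14.5% of all genes were, and 19 of the 20 were higher with both drugs than with either. The median change was 0.05 with palbociclib, 0.60 with indisulam and 1.17 with both, and the median departure was 0.60, which ranged from 0.38 without the first untreated library to 0.68 without the second.

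ITGA11, the integrin chain that binds fibrillar collagen (ENSG00000137809, chr15:68296532-68432163, minus strand), had the largest departure among the genes with at least 1 CPM in every group. It measured 5.64 and 5.47 CPM untreated, 3.71 and 3.84 with palbociclib, 6.77 and 7.86 with indisulam, and 92.96 and 95 with both. The single drugs moved it by −0.55 and 0.40 on the log2 scale and both together by 4.08, so that its departure was 4.23 ± 0.19 (edgeR adjusted p 3.17e-09), or 18.8 times the product of the single-drug folds. TNC, tenascin C, went the same way, with 4.49 and 4.33 CPM untreated, 1.56 and 1.34 with palbociclib, 9.05 and 9.32 with indisulam and 50.8 and 55.1 with both. Palbociclib alone lowered it and the combination raised it, with a departure of 4.13 ± 0.22, and it overlaps DELEC1 on the other strand.

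TAGLN, transgelin, a marker of contractile cells, measured 4.08 and 2.2 CPM untreated, 4.60 and 4.39 with palbociclib, 20.5 and 22.1 with indisulam and 238 and 230.5 with both, a departure of 2.94 ± 0.25. TAGLN overlaps PCSK7 on the other strand. LAMB3 and LAMA3, laminin chains of epithelial basement membranes, departed by 1.33 ± 0.11 and 1.27 ± 0.11.

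The collagen genes named here departed less than ITGA11, TNC and TAGLN. COL1A1 measured 1.90 and 1.93 CPM untreated, 3.49 and 4.09 with palbociclib, 20.5 and 19.6 with indisulam and 73.7 and 73.5 with both, a departure of 0.89 ± 0.23 (edgeR adjusted p 0.00971). Its log2 change was 3.38 with indisulam alone and 5.25 with both drugs. The basement membrane collagens COL4A1 and COL4A2 departed by 1.07 ± 0.20 and 0.93 ± 0.13, and COL12A1 by 0.83 ± 0.12. COL17A1, the collagen of hemidesmosomes, departed by 1.87 ± 0.30. ITGA2, a collagen receptor raised by palbociclib alone, was below the sum at −0.48 ± 0.11. The summed level of the 6 fibroblast markers rose from 1.97 to 2.2 CPM untreated to 82.6 to 84.5 with both drugs and was mostly COL1A1. Of these 6 markers 1 had over 3 counts in the untreated group and 5 in the combination. Over the 8 libraries LUM held 275 counts, PDGFRB 41, COL3A1 and DCN 12 each and COL1A2 3. Only 2 of the 6 had enough counts to be tested. Both were higher with both drugs than in untreated cells, with departures of 0.89 and 3.64, of which only that of COL1A1 was called.

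Some genes were near 0 without indisulam. MYL9, a myosin light chain, had 14 and 9 counts in untreated libraries, 20 and 18 with palbociclib, 95 and 117 with indisulam and 1291 and 1384 with both. CCL2 had 9 and 13 counts untreated, 27 and 38 with palbociclib, 112 and 99 with indisulam and 679 and 777 with both. The transcription factor MAF went from 2 and 1 counts to 78 and 83 with indisulam and 1128 and 1275 with both, and LINC02154 from 2 and 0 to 48 and 60 and then to 1312 and 1359. The departures of such genes rest on a handful of untreated or palbociclib reads. CCL2 was no longer called without the second untreated library (0.97, edgeR adjusted p 0.195), COL5A1 without the first (1.47, adjusted p 0.164), and LINC02154 and MAF without the first (1.47 and 2.67, adjusted p 0.871 and 0.34). LINC02154 was not called in 6 of the 8 fits that left out 1 library, all but those without the second untreated or second indisulam library, with other values of 4.5 to 4.75. MAF was not called in 7 of the 8, all but that without the first palbociclib library, with other values of 2.82 to 3.61. Fitted values this close to 0 reads depend on the prior count. Over all tested genes, 157 of those above the sum and 94 of those below had a group mean under 1 CPM.

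Glycolysis and hypoxia response genes leaned above the sum, with 19 of 34 (55.9%) above and 1 (2.94%) below, against 10.7% and 14.5% of all genes. The median departure was 0.42. The angiopoietin-like lipase inhibitor ANGPTL4 measured 2.86 and 2.93 CPM untreated, 4.01 and 2.44 with palbociclib, 5.87 and 5.49 with indisulam and 38.01 and 40.03 with both, a departure of 2.65 ± 0.27. PFKFB4, which sets the level of a glycolytic activator, measured 1.9 and 1.8 CPM untreated, 1.71 and 1.77 with palbociclib, 5.25 and 5.09 with indisulam and 29.6 and 25.9 with both, a departure of 2.51 ± 0.28. Departures over 1 were also seen for NDRG1 (1.22 ± 0.08), ADM (1.11 ± 0.17) and the prolyl hydroxylase P4HA1 (1.08 ± 0.09), and the glucose carrier SLC2A1 reached 1.00 ± 0.08. The glycolytic enzymes ENO1 (−0.20 ± 0.08), LDHA (−0.05 ± 0.07), PKM (0.04 ± 0.08) and GPI (−0.01 ± 0.09) were not called. Carbonic anhydrase CA12 was the 1 gene below the sum, at −0.86 ± 0.08.

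Of 43 lysosomal genes 20 were above the sum and 4 below, where 10.7% and 14.5% of all genes were, with a median departure of 0.39. Indisulam alone lowered 18 of them and raised 11, against 2757 and 4420 of all 15780 genes. With both drugs 24 were higher than in untreated cells and 10 lower, against 5544 and 4739 of all. MAN2B1, lysosomal alpha-mannosidase, measured 45.0 and 36.1 CPM untreated, 34.1 and 34.1 with palbociclib, 28.4 and 27.0 with indisulam and 58.3 and 54.5 with both. Each drug alone was under untreated cells and the combination over them, a departure of 1.27 ± 0.13 (edgeR adjusted p 7.29e-06). The alpha-fucosidase FUCA1 departed by 0.84 ± 0.12, the cathepsins CTSA and CTSB by 0.68 ± 0.09 and 0.64 ± 0.07, and LAMP1 by 0.62 ± 0.08. GLB1, which encodes the beta-galactosidase stained in senescent cells, departed by 0.47 ± 0.08 but changed by only −0.01 with both drugs against untreated cells. HLA class I genes followed with 7 of 22 (31.8%) above, against 10.7% of all genes, and none below in edgeR (1 at an unadjusted p under 0.05, 0 with DESeq2). They were led by HLA-B at 1.02 ± 0.14 and HLA-C at 0.95 ± 0.13, whose counts are uncertain because reads shared between HLA genes were set aside.

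Indisulam alone raised 28 of 30 p53 target genes and both drugs raised 29, against 4420 and 5544 of all 15780 genes. The median changes were 1.25 and 1.34. The median departure was 0.04 and ranged from −0.01 without the second indisulam library to 0.08 without the first. Of the 30, 7 (23.3%) were above the sum (4 without the first combination library), against 10.7% of all genes, 4 (13.3%) were below, against 14.5% of all, and 19 were not called. CDKN1A, the p21 inhibitor of cyclin-dependent kinases, measured 39.2 and 43.7 CPM untreated, 56.0 and 54.3 with palbociclib, 377 and 383 with indisulam and 683 and 666 with both. Each step up the series of groups was without overlap, yet the departure was 0.41 ± 0.09 (edgeR adjusted p 0.00321), a factor of 1.33 on a total rise of 16.3-fold. GDF15, a secreted stress cytokine, measured 44.5 and 34.8 CPM untreated, 44.5 and 40.3 with palbociclib, 123 and 129 with indisulam and 85.8 and 78.3 with both. Its combination libraries lay between indisulam and the rest, and the departure was −0.72 ± 0.14 (edgeR adjusted p 0.00136). MDM2 and BAX departed by 0.30 ± 0.09 and 0.41 ± 0.10.

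Of 20 tested chemokine and interleukin genes palbociclib raised 12, indisulam 17 and the combination 19, against 1310, 4420 and 5544 of all 15780 genes. The median departure was −0.41, with 3 (15.0%) above the sum, 6 (30.0%) below and 11 not called, against 10.7% and 14.5% of all genes above and below. DESeq2 called 2 above and 3 below. The count below was 3 without the first indisulam or the second combination library. The count above was 0 without the second untreated library and 1 without either palbociclib, the first indisulam or the first combination library. CXCL8, interleukin 8, measured 6.32 and 7.00 CPM untreated, 24.9 and 25.8 with palbociclib, 52.0 and 54.3 with indisulam and 90.3 and 86.6 with both. It was highest with both drugs, and still departed by −1.19 ± 0.12 (edgeR adjusted p 5.3e-06). The sign depended on the scale, since CXCL8 lay 16.7 CPM above the sum when that was taken in CPM. CXCL5 measured 214.6 and 251.3 CPM untreated, 483 and 479 with palbociclib, 451 and 462 with indisulam but 308 and 318 with both. The combination was lower than either drug for this gene, and the departure was −1.59 ± 0.09. IL6 had 0.544 and 0.533 CPM untreated and 7.09 and 7.402 with both, and its departure of −0.62 (95% interval −1.47 to 0.23) was not called.

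Of the 5 senescence lists in the supplement of the study, 4 had more genes above the sum than below, whereas the Hernandez secretory list was divided. Above and below it were 17 and 4 of 41 genes of the Casella list, 29 and 5 of 71 of the Fridman list, 16 and 1 of 31 of the Hernandez senescence list, 12 and 8 of 34 of the Purcell list, and 5 and 4 of 21 of the Hernandez secretory list. The median departures were 0.36, 0.30, 0.39, 0.34 and 0.13 in this order. Of all tested genes 10.7% were above the sum and 14.5% below it. All 5 lists had a larger share above than all tested genes. The share below was larger than that of all tested genes in the Purcell and Hernandez secretory lists and smaller in the others. With 1 library left out, the count below in the Hernandez secretory list ranged from 2 to 5. Without the first untreated library the Casella and Purcell medians were 0.20 and 0.19, and without the second the Hernandez secretory median was −0.10. The secretory list had 3 genes above without either combination library, the Casella list 7 below without the second untreated library, and the Fridman list 3 below without the first indisulam or the second combination library. High members were the chaperone CRYAB (2.01 ± 0.12), the stress factor ATF3 (2.19 ± 0.16) and the tetraspanin CD82 (1.88 ± 0.12). Low members were S1PR3 (−1.65 ± 0.12), CXCL5 and CCND3.

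**Figure D3:**
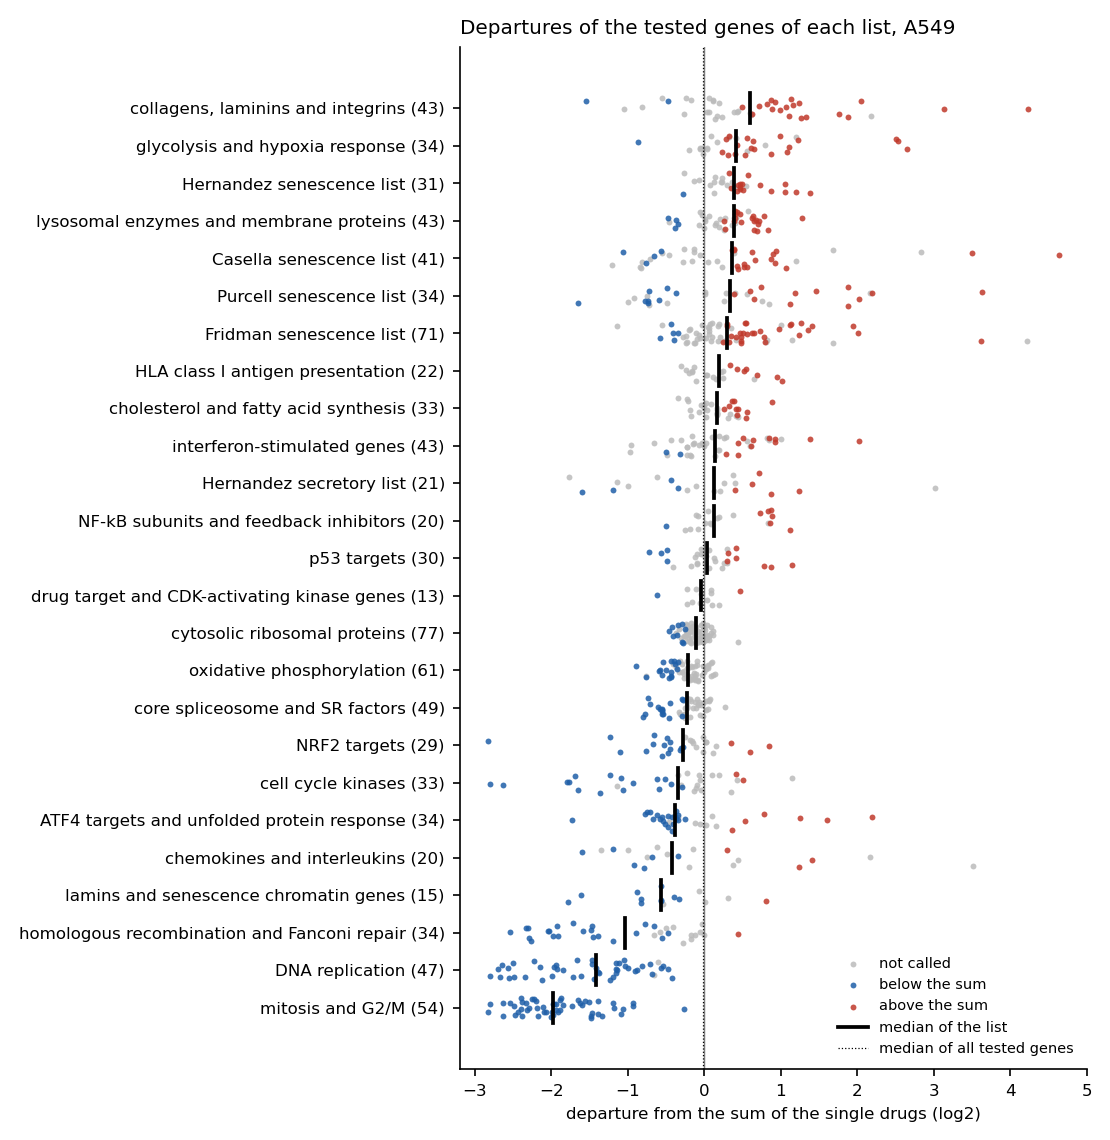
Departures in log2 units (x axis) of the tested genes of 25 gene lists (y axis, number of genes in brackets), coloured by call, with a bar at the median of the list and a dotted line at the median of all tested genes (−0.0212). The mitosis list lies wholly under 0 with a median of −1.97, and the collagen, laminin and integrin list has the highest median, 0.60.

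**Figure D4:**
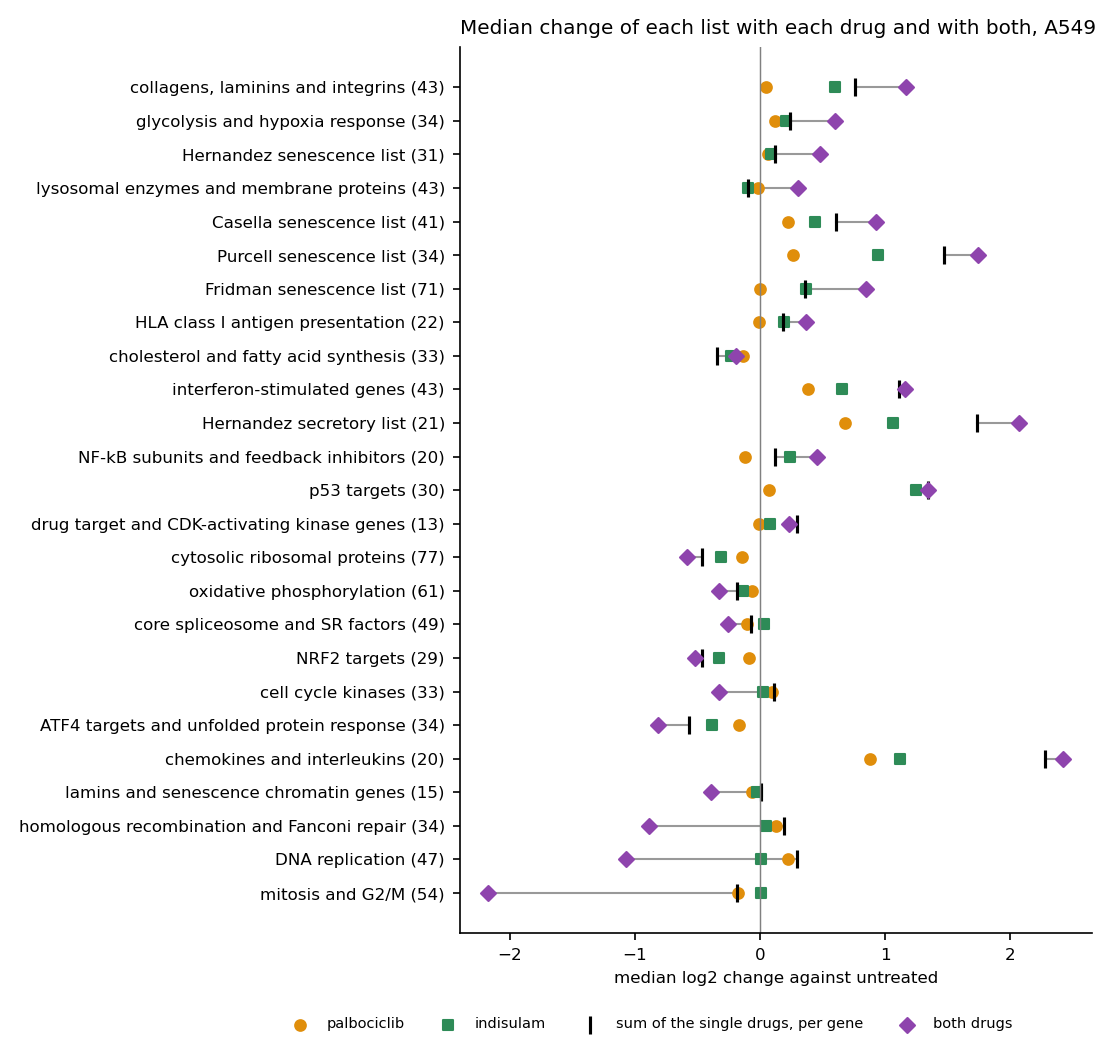
Median log2 change against untreated cells for the same lists with palbociclib (circles), indisulam (squares) and both drugs (diamonds), and the median of the per-gene sums of the single drugs (vertical ticks). The mitosis list sits near 0 with each drug and at −2.17 with both, while the p53 list sits at 1.25 with indisulam and 1.34 with both.

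Metabolic and stress genes were found on both sides. Of 34 ATF4 and unfolded protein response genes 21 (61.8%) were below the sum and 6 (17.6%) above, against 14.5% and 10.7% of all genes. The serine synthesis enzyme PHGDH measured 319 and 289 CPM untreated, 234 and 234 with palbociclib, 186 and 180.1 with indisulam and 44.5 and 40.7 with both, a departure of −1.73 ± 0.09 (edgeR adjusted p 1.15e-08). PSAT1, the next enzyme, departed by −0.78 ± 0.09 and ATF4 itself by −0.34 ± 0.08. STC2, a secreted glycoprotein on the same list, went the other way, lower with each drug (−0.47 and −0.53) and higher with both (0.60), a departure of 1.61 ± 0.09. Of 29 NRF2 targets 15 (51.7%) were below the sum and 3 (10.3%, a share close to that of all genes) above. The 3 were FTH1 (0.84 ± 0.08), HMOX1 (0.60 ± 0.14) and FTL (0.35 ± 0.07), and 5 were above without the first untreated library. The aldo-keto reductase AKR1B10 measured 6296 and 6667 CPM untreated, 6498 and 6398 with palbociclib, 3624 and 3680 with indisulam and 1554 and 1555 with both, a departure of −1.23 ± 0.07. AKR1C1 departed by −1.10 ± 0.08, although AKR1C genes share reads with near copies. Of 33 cholesterol and fatty acid genes 10 (30.3%, against 10.7% of all) were above the sum, 6 without the second palbociclib library. None was below in edgeR (1 at an unadjusted p under 0.05, 0 with DESeq2). LSS was above at 0.88 ± 0.14.

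Splicing, ribosomal and respiratory genes departed weakly. Of 49 core spliceosome and SR genes 16 (32.7%) were below the sum, against 14.5% of all genes. None was above in edgeR (0 also at an unadjusted p under 0.05 and with DESeq2). SRSF2 (−0.80 ± 0.11) and SRSF1 (−0.77 ± 0.10) were lowest, and the median of the list was −0.23. Of 77 cytosolic ribosomal protein genes 9 were below, a share close to that of all genes, and that count ranged from 4, without the first palbociclib, either indisulam or the second combination library, to 35 without the second untreated library. Of 61 nuclear genes of oxidative phosphorylation 16 (26.2%) were below, 9 without the second combination library and 29 without the second untreated one. The largest of these, ATP5MC1, departed by −0.89 ± 0.10. Ribosomal protein genes have many processed copies, and their counts are uncertain to that extent.

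Outside the cell cycle, AQP3, GPRC6A, CFTR and NKD1 were among the 10 lowest departures of genes with at least 1 CPM in each group, as was the antisense RNA AQP5-AS1 (−3.16). AQP3, the aquaglyceroporin of epithelia (ENSG00000165272, chr9:33441156-33447596, minus strand), measured 884 and 822 CPM untreated, 1053 and 1028 with palbociclib, 512 and 531 with indisulam, and 69.0 and 64.3 with both. Its departure of −3.25 ± 0.08 had an edgeR adjusted p of 1.56e-11. GPRC6A, an amino acid sensing receptor, measured 61.4 and 82.7 CPM untreated, 60.3 and 56.9 with palbociclib, 31.4 and 28.4 with indisulam, and 2.34 and 2.00 with both, a departure of −3.48 ± 0.23. CFTR, the epithelial chloride channel (ENSG00000001626, chr7:117287120-117715971, plus strand), measured 3.33 and 3.80 CPM untreated, 10.2 and 11.04 with palbociclib, 23.8 and 22.5 with indisulam, and 5.32 and 5.60 with both. Both drugs alone raised it and the combination stood only a little over untreated cells, so that the departure was −3.66 ± 0.19 (edgeR adjusted p 9.06e-09). NKD1, an inhibitor in the Wnt pathway, had the same pattern, with 4.42 and 6.2 CPM untreated, 17.7 and 13.6 with palbociclib, 15.96 and 20.3 with indisulam and 5.81 and 7.34 with both. CFTR, NKD1 and AQP5-AS1 overlap genes on the other strand.

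Epithelial markers, those of the labelled cell type, lay on both sides of the sum. Of the 6, 2 were above it and 3 below, against 10.7% and 14.5% of all genes. With both drugs the 4 keratins were higher than in untreated cells, and the other 2 markers, EPCAM and CDH1, were lower. KRT19 and KRT7 were above the sum, at 0.75 ± 0.12 and 0.58 ± 0.09. KRT18 and KRT8, which rose with each drug, were below it at −0.45 ± 0.08 and −0.33 ± 0.11, and share reads with near copies and overlap each other. KRT8 was no longer called without any 1 of the 6 treated libraries, at −0.30 to −0.36.

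A gene can also respond to indisulam in opposite directions without and with palbociclib. This was the case for 369 of the 15780 tested genes. Each was called for indisulam against untreated cells, for the combination against palbociclib, and for the departure, which is the test of the difference between these effects. In 263 of them (6.61% of the 3977 genes called for the departure) indisulam raised the gene alone and lowered it in the presence of palbociclib. In 106 (2.67%) it lowered the gene alone and raised it with palbociclib. The first set held 11 of 47 DNA replication and 10 of 54 mitosis genes, against 263 of all 15780. Among them were ORC1, MCM2, PCNA and ASPM, and the set also held CCND3, CXCL5, CFTR and SRSF1. The second held 8 of 43 lysosomal genes, against 106 of all 15780, MAN2B1 and FUCA1 among them, and also STC2 and FTH1. The number was 188 with DESeq2, and with 1 library left out it ranged from 243 without the first combination library to 539 without the second untreated library.

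Libraries that share nothing with this comparison came from SUM159, a triple negative breast cancer line, untreated or given 0.5 µM PF-06873600 for 7 days. This compound blocks CDK2 as well as CDK4 and CDK6. Line, drug and time all differ, so the values are set side by side. Of 13607 genes tested in both lines, PF-06873600 raised 35.7% and lowered 38.1%. Among genes above the sum in A549 it raised 64.0% and lowered 17.3%, with a median log2 change of 0.46, and among genes below the sum it raised 25.1% and lowered 59.2%, with a median of −0.41. Among genes not called the shares were 33.4% and 37.0%.

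**Figure D5:**
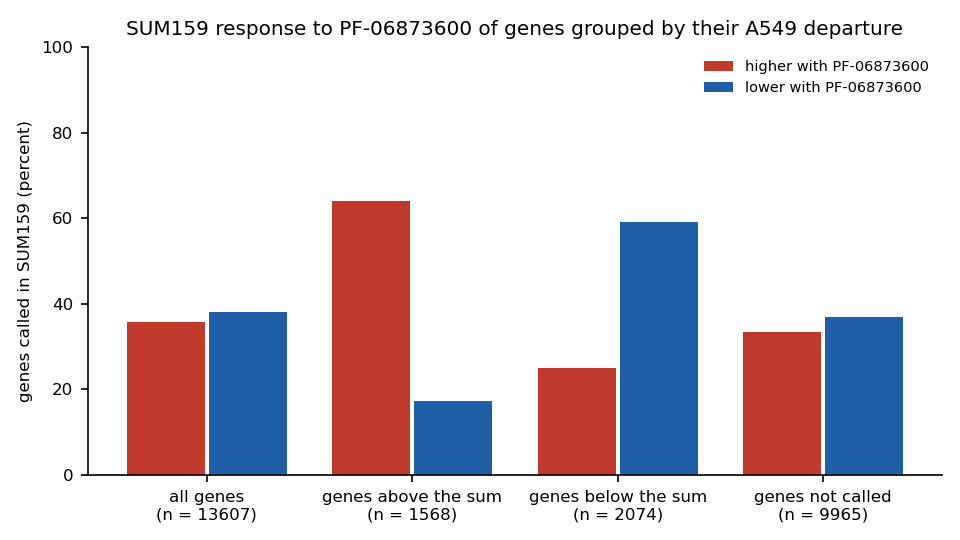
Percent of genes called higher and lower with PF-06873600 in SUM159 (y axis, bars from 0) for all genes tested in both lines, genes not called, genes above and genes below the sum in A549, with the number of genes under each pair of bars. Genes above the sum were higher in 64.0% and genes below the sum lower in 59.2%, against 35.7% and 38.1% of all genes.

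By list, PF-06873600 lowered all 54 mitosis genes, with a median of −1.39, and 43 of 47 replication genes, with a median of −0.96. It raised 39 of 43 matrix genes, with a median of 1.08, and 41 of 43 lysosomal genes, with a median of 1.45. ITGA11 went from 12.7 and 13.3 CPM to 136 and 138, a log2 change of 3.39 ± 0.07, and TNC changed by 1.64 ± 0.06. LMNB1 changed by −2.22 ± 0.06, NUF2 by −1.44 ± 0.08 and CDC6 by −0.88 ± 0.06. Other genes did not share the direction of their departure. TAGLN was lower with PF-06873600 (−0.67), PHGDH, AKR1B10 and AQP3 were higher (0.53, 1.68 and 1.42), and ANGPTL4 was not called (−0.04, edgeR adjusted p 0.71). GDF15 and CXCL8, which were below the sum on the log2 scale in A549, were higher in SUM159 by 5.04 and 4.19. Of 33 cholesterol and fatty acid genes 19 were lower and 3 higher, and 48 of 49 spliceosome genes were lower, RBM39 by −0.90 ± 0.05.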

How the data were processed

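RNA from A549 and SUM159 cells was made into poly(A) libraries with a stranded kit and sequenced as single-end reads. Each file, deposited by the authors, holds whole-number read counts, not normalized, on 60683 Ensembl gene identifiers plus summary lines. The submitters' processing notes name HISAT2 2.2.1, HTSeq and GRCh38. The annotation release and whether counting used strand are not given in the sources used here, so a gene that overlaps another on the other strand may carry its reads. Such genes were 58.8% of those called above the sum and 60.5% of those called below. Their share of all tested genes is not given here, so these shares are not a trait of the called genes. Symbols of 60370 identifiers came from GENCODE release 44. Reads carry no molecular identifiers, so depth limits cover counting error only.

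Counts were scaled by their total on genes, kept by filterByExpr and fitted with edgeR 4.0.16 (R 4.3.3) over the 5 A549 groups. The PF-06873600 pair of A549 (0.5 µM, 7 days) entered the filter and the estimate of the spread, but not the contrast. The contrast combination − palbociclib − indisulam + untreated was tested with the quasi-likelihood F test and Benjamini-Hochberg adjustment at 0.05. SE is the absolute log2 value over the root of F, and intervals are at 95%. The biological coefficient of variation was 0.0555. An exact permutation test of 2 against 2 libraries cannot go below a two-sided p of 0.33. SUM159 was fitted alone. The scripts were tested on simulated data.

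The members, gene lists and motifs were chosen with earlier results of these data known. Named genes were the 10 largest and 10 lowest departures with at least 1 CPM in each group and 1 sign in all 16 choices of 1 library per group, the 2 highest and 2 lowest such calls of each list, 25 preset cell cycle, target and secretory genes, and the 5 called genes highest with both drugs among those under 1 CPM in a group. CDKN2A and MTAP checked the line. Other list members were named after their values were seen. A few genes that these rules name are not reported here. Alternatives were TMM factors, DESeq2 1.42.0, other filters, 8 libraries only, replicate blocks, a 1.5-fold threshold and each library left out. The GO terms and pathways of other databases, protein sequences and the authors' splicing data were not used here.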

Additional observations from a re-analysis of the deposited data

Results flagged for a closer look

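The effect of indisulam differed between cells without and with palbociclib, in opposite called directions, for 369 of the 15780 tested genes. The difference is the tested departure, with edgeR's quasi-likelihood test and an adjusted p under 0.05. PCNA is an example, with a log2 change of 0.66 with indisulam against untreated cells, 0.19 with palbociclib against untreated cells, and −0.61 with both drugs against untreated cells. The untreated libraries, which differed most from each other, enter the indisulam effect, and their part in the number was not tested beyond the fits without them, which gave 454 and 539 genes. No group held 4 or more libraries, so no library was tested as an outlier.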

How the results depend on the processing

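The number of genes above and below the sum was 1598 and 2336 with TMM factors. In a fit of the 8 compared libraries alone it was 1479 and 2010, with 293 opposite indisulam effects. With DESeq2 it was 1241 and 1495, with 188 opposite indisulam effects and a median departure of 0.0058. Against a departure of 1.5-fold, 257 genes were above and 511 below. With the same threshold also on the other changes that define these classes, 195 and 371 of them were beyond both drugs, and 7 had opposite effects. The median departure was 0.0043 with no filter and −0.0416 with a mean of at least 50 counts. Leaving out 1 library gave 1167 to 2147 genes above, 1629 to 2857 below, 938 to 1577 and 1150 to 2037 beyond both drugs, 243 to 539 opposite effects and medians from −0.042 to −0.0029. The SUM159 shares were 56.95% and 55.9% with DESeq2 and 58.5 to 63.9% and 56.1 to 59.5% without 1 library. The cause of these changes was not tested. A block for the replicate number gave 1624 genes above and 2220 below, and 1927 and 2565 with crossed palbociclib numbers. Deviations of same-numbered libraries correlated between −0.16 and 0.117, so the numbers were not taken as pairs. Of 112 named genes 101 were called, and 87 of these stayed called in every alternative but the 1.5-fold threshold. That threshold removed the call of 46. Of the lists, mitosis kept 52 genes below, replication 34 below and the matrix list 11 above. By contrast, 1 lysosomal gene and 1 p53 target stayed above, and 0 cholesterol or spliceosome genes on either side. Of the ATF4 list 3 genes stayed above and 1 below, whereas the main fit had more below than above. Of the NRF2 targets 1 stayed above and 2 below. No named gene that was called in the main fit or in the alternative changed direction there. Changes of sign in genes called in neither fit were not counted. The 2 libraries per group limit how finely small departures can be told from 0.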

Other observations

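Further gene groups were counted against the sum. Of 43 interferon-stimulated genes 11 (25.6%) were above it and 2 (4.65%) below, against 10.7% and 14.5% of all genes. Their median departure was 0.14, against −0.0212 for all genes. That median ranged from 0.015 without the first combination library to 0.23 without the second. IFI6 and IFIT2 departed by 1.38 ± 0.27 and 0.93 ± 0.14, OAS3 by −0.50 ± 0.09. Of 20 NF-kB subunit and feedback genes 6 (30.0%) were above and 1 (5.0%) below. The feedback deubiquitinase TNFAIP3 measured 2.18 and 2.27 CPM untreated, 1.71 and 1.89 with palbociclib, 10.0 and 9.05 with indisulam and 16.7 and 17.0 with both, a departure of 1.12 ± 0.25, while BCL3 departed by −0.50 ± 0.12.

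Among the 10 largest departures of genes with at least 1 CPM in each group, the lowest levels belonged to the adrenergic receptor gene ADRA2A and to MB21D2. ADRA2A measured 3.94 and 3.33 CPM untreated, 1.26 and 0.793 with palbociclib, 3.53 and 3.24 with indisulam and 4.96 and 6.44 with both, a departure of 2.60 ± 0.35. Palbociclib alone lowered it, and its level with both drugs was less than 2-fold that of untreated cells, so the departure came with no large rise. MB21D2 had the same order of groups, with a departure of 2.54 ± 0.34.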
